A study of Mus musculus with 6 samples.

Results

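A set of 10 haematopoietic growth factor and interleukin 1 genes were followed in Elf5-positive against Elf5-negative cells of mouse breast tumours. They were Csf1, Csf2, Csf3, Il34, Il33, Tslp, Il1a, Il1b, Il1rn and Il18. The members were chosen by gene symbol from the 52325 genes of the deposited table, and all 10 were found and passed the filter on low counts.

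Elf5 is a transcription factor of the luminal progenitor and alveolar lineage of the mammary gland, and the mice carried an Elf5-GFP reporter. All 6 libraries came from breast tumours of C57BL/6 mice of the kind labelled C3-T; Elf5-GFP. The cells were released with collagenase and hyaluronidase, sorted with antibodies to CD45 (leukocytes), CD31 (endothelium) and TER119 (erythroid cells), and then sorted by GFP. The Elf5-positive group holds 2 GFP-positive libraries, both marked T2 and each with a title number of its own. The Elf5-negative group holds 4 GFP-negative libraries, of which libraries 1 and 3 are marked T1 and libraries 2 and 4 are marked T2. Elf5-negative libraries 1 and 2 share the number of Elf5-positive library 1, and Elf5-negative libraries 3 and 4 share that of Elf5-positive library 2. The labels give no age, do not explain T1, T2 or the numbers, and do not state whether each library is a different animal. P-values therefore describe variation among these 6 libraries, which may be technical. No Elf5-positive library is marked T1, so T1 and the group cannot be told apart in Elf5-negative libraries 1 and 3.

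Colony-stimulating factor 1 (Csf1) and interleukin 34 (Il34) are separate ligands of one receptor, Csf1r, and maintain macrophages. Csf2 and Csf3 drive granulocyte and macrophage output and neutrophil output. Interleukin 33, interleukin 1 alpha and TSLP are alarmins, cytokines that barrier or stromal cells release on damage or stress, whereas interleukin 1 beta and interleukin 18 are made as precursors that inflammasome caspases cut. Il1rn encodes the receptor antagonist that occupies the interleukin 1 receptor without signalling. In the mammary gland, Csf1 is known for recruiting and maintaining the macrophages of ducts and of tumours.

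The promoter windows of Il33 and Il18, which passed the test, and of Csf1, the most abundant growth factor, are printed to show which motifs they hold of NF-kappaB, which interleukin 1 signalling activates, and of the ETS family, to which Elf5 belongs. Il34 and Csf3 have no entry in the promoter table, and no window of Tslp was used. The windows run from 250 bases before to 50 bases after the RefSeq start, on GRCm38.p6 and in the direction of the gene. Capitals mark matches to GGG and TTTCC with 2 bases of any kind between them (NF-kappaB), CCGGAAG or AGGAAG (ETS core), TGANTCA (AP-1) or, for the TATA box, TATAAA, on either strand. The 2 windows of Il33 lie at chr19:29924863-29925162 and chr19:29945540-29945839 on the plus strand, that of Il18 at chr9:50554450-50554749 on the plus strand, and that of Csf1 at chr3:107760420-107760719 on the minus strand.
Il33 upstream start: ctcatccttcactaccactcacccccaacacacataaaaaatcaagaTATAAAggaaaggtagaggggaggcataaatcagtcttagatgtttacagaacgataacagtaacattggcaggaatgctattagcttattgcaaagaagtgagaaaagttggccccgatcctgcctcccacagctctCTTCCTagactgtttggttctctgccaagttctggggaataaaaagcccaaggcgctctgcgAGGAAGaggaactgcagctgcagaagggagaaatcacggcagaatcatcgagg
Il33 downstream start: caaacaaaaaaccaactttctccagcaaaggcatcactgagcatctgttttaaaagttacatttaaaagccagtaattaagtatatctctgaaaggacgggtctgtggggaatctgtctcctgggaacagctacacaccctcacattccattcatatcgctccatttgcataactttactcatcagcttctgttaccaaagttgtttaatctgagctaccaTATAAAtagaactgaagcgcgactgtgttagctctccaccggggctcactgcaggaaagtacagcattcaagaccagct
Il18 start: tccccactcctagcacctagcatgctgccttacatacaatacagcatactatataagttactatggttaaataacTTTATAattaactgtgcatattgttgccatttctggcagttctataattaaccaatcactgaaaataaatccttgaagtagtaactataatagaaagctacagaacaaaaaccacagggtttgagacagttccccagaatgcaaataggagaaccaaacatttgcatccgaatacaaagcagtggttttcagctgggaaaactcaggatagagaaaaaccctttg
Csf1 start: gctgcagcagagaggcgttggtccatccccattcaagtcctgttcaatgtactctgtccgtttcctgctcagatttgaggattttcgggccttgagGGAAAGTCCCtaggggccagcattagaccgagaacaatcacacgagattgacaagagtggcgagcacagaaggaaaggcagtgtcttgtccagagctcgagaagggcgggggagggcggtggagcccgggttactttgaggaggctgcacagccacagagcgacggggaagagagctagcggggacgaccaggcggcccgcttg

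The upstream window of Il33 holds AGGAAG at position -3 and its reverse complement CTTCCT at -65, counted from the start site, and a TATAAA at -203. The downstream Il33 window holds TATAAA at -29. The Il18 window holds only a reverse TATAAA at -175, and the Csf1 window a reverse NF-kappaB match at -154. AGGAAG occurs in 35.4% of the 32851 promoter windows of the genome table, TATAAA in 13.6%, CCGGAAG in 8.86%, TGANTCA in 7.81% and the NF-kappaB motif in 1.63%. No motif match overlapped another in these 4 windows. Of the windows not printed, that of Il1a held AGGAAG at -40. Overlapping windows of Il1rn shared a single NF-kappaB site, which lay at 30 and -51 from their respective starts. Those of Il1b and Csf2 held neither an ETS nor an NF-kappaB match. A match describes letters and is no evidence of binding, and none of the libraries measured binding.

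Library totals ran from 45145621 to 49563376 estimated counts in Elf5-positive cells and from 9106660 to 53694884 in Elf5-negative cells, with library 4 of the Elf5-negative cells the smallest. Elf5 itself, the gene behind the sort, stood at 77.7 and 137 CPM, which are counts scaled to a common library total, in Elf5-positive libraries and at 10.7, 6.93, 10.5 and 24.7 CPM in Elf5-negative libraries (log2 fold change 3.04, SE 0.48, edgeR adjusted p = 0.0165). The summed level of 18 epithelial markers was 6397 to 9425 CPM in Elf5-positive libraries and 2348 to 4046 CPM in Elf5-negative libraries, and 10 of the 18 were higher by the test. The summed level of 14 fibroblast markers was 1129 to 1384 CPM against 17390 to 52080 CPM, and 13 of the 14 were lower. Col3a1, the collagen with the highest level of that list, stood at 261 and 223 CPM in Elf5-positive libraries and at 8876, 5289, 19810 and 7054 CPM in Elf5-negative libraries. No marker of the fibroblast list was at 0 in a library. In bulk RNA, fewer cells of a type and less RNA per cell cannot be told apart.

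Of the 10 members, 3 were lower in Elf5-positive libraries at an adjusted p below 0.05 in edgeR's quasi-likelihood test, and 0 were higher. They were Il34, Il33 and Il18. The shares over all 20684 genes tested were 3.79% lower and 0.585% higher, 4.37% in either direction. The median log2 fold change of the members was -1.35, beside a median of 0.05 over all genes tested. Of the members 9 of 10 were below 0, beside 46.7% of all genes tested. CPM did not overlap between the groups, with Elf5-positive lower, for 4 members (Csf1, Il34, Il33 and Il18), beside 14.8% of all genes tested, and 25.7% did not overlap in either direction. At an unadjusted p below 0.05 the same 4 members were lower and 0 higher, beside 2423 lower and 1075 higher among all genes tested. DESeq2 and limma-voom also called 0 members higher. Over all genes, DESeq2 called 1763 lower and 436 higher, and limma-voom 894 lower and 180 higher.

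**Figure D1:**
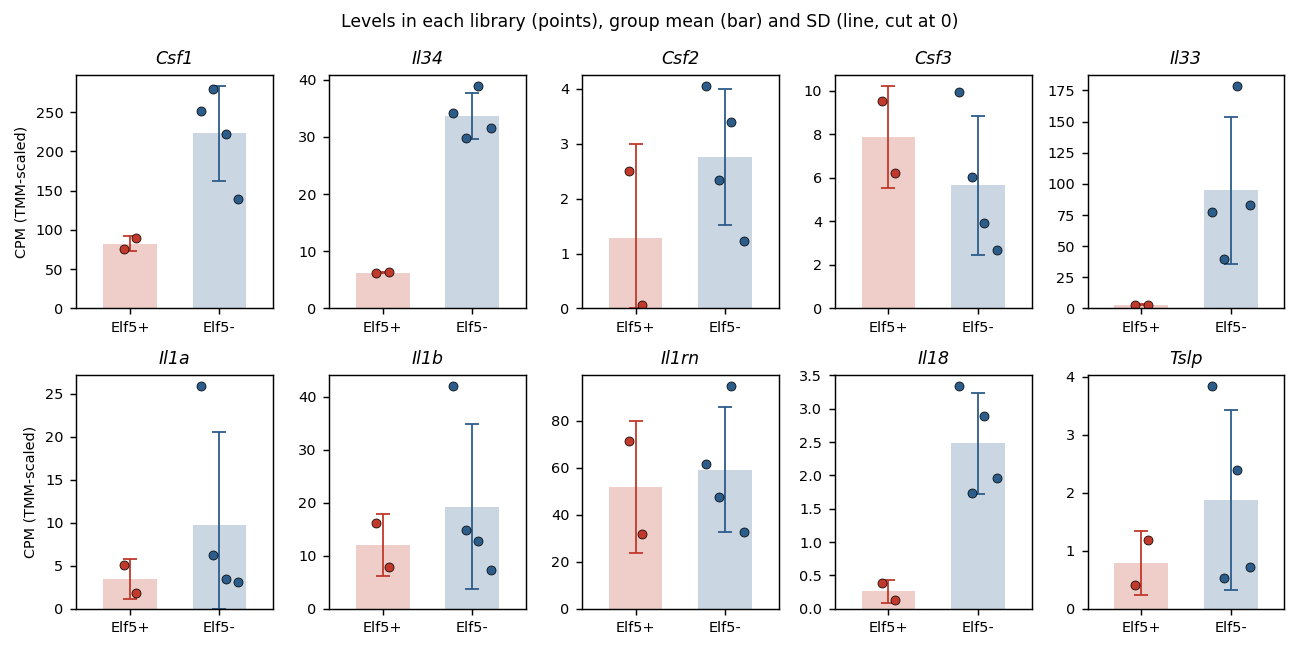
Level of each member in every library, as TMM-scaled CPM on a linear axis from 0, with Elf5-positive (Elf5+) left of Elf5-negative (Elf5-); points are single libraries, bars group means and lines the SD. Il33 stands at 2.54 and 3.17 CPM in Elf5-positive libraries and between 40.1 and 179 CPM in Elf5-negative libraries, while the groups of Csf3 and Il1rn overlap.

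Per kilobase of exon, Csf1 was the highest member in both groups, at 15.6 ± 1.83 CPM per kb (SD, n = 2) in Elf5-positive cells and 42.2 ± 11.5 (SD, n = 4) in Elf5-negative cells. In Elf5-positive cells the order then ran Il1rn (9.35), Il1b (6.33), Csf3 (5.58), Il34 (3.19), Il1a (1.76), Csf2 (1.6), Il33 (0.989), Tslp (0.596) and Il18 (0.251 CPM per kb). In Elf5-negative cells it ran Il33 (32.8), Il34 (17.2), Il1rn (10.7), Il1b (10.1), Il1a (4.91), Csf3 (3.99), Csf2 (3.4), Il18 (2.40) and Tslp (1.41 CPM per kb). Il33 was thus second among the members in Elf5-negative cells and eighth in Elf5-positive cells. In Elf5-negative cells Csf1 and Il33 overlapped in their libraries, and Il33, Il34, Il1rn and Il1b overlapped one another. Il1b also overlapped Il1a, and the members from Il1a down to Tslp overlapped one another. In Elf5-positive cells Il1rn, Il1b and Csf3 overlapped one another, as did neighbours in the order from Il1a to Il18. With the length of the longest transcript in place of all exons, Il1rn came first in Elf5-positive cells, at 20.3 CPM per kb beside 19.8 for Csf1.

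Of the pair of Csf1r ligands, Il34 was lower in Elf5-positive cells and Csf1 missed the threshold. Csf1 (ENSMUSG00000014599, GRCm38 chromosome 3 at 107741048 to 107760469, minus strand) stood at 75.8 and 89.4 CPM in Elf5-positive libraries and at 252, 279, 222 and 139 CPM in Elf5-negative libraries. Both Elf5-positive libraries lay below all 4 Elf5-negative libraries, of which library 4 was the lowest. The means were 82.6 ± 9.64 CPM (SD, n = 2) and 223 ± 60.7 CPM (SD, n = 4), with a log2 fold change of -1.43 (SE 0.33, edgeR adjusted p = 0.0528). The value lay just outside the threshold: it passed with DESeq2 (adjusted p = 0.00128) and limma-voom (adjusted p = 0.0415). In edgeR it did not pass with the T2 libraries alone (adjusted p = 0.368) or without Elf5-negative libraries 1 and 2 (adjusted p = 0.349). On leaving out a single Elf5-negative library, it passed without library 4 (adjusted p = 0.0238) and not without library 1, 2 or 3.

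Il34 (ENSMUSG00000031750, chromosome 8 at 110741829 to 110805924, minus strand) stood at 6.19 and 6.33 CPM in Elf5-positive libraries and at 34.2, 29.8, 39.0 and 31.6 CPM in Elf5-negative libraries. In proportion to its mean it was the member with the smallest spread within each group, with 6.26 ± 0.101 CPM (SD, n = 2) and 33.6 ± 3.98 CPM (SD, n = 4). Il34 fell by 2.43 on the log2 scale (SE 0.26, edgeR adjusted p = 0.0100), a level 5.38-fold lower in Elf5-positive cells. Between the T2 libraries of the same title number the log2 differences were -2.27 for Elf5-positive library 1 and -2.32 for Elf5-positive library 2. Without Elf5-negative libraries 1 and 2 the adjusted p was 0.0626.

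Per kilobase, Csf1 exceeded Il34 in every library, by 4.5-fold and 5.24-fold in Elf5-positive libraries and by 2.73-, 3.5-, 2.11- and 1.63-fold in Elf5-negative libraries. The Elf5-positive ratios lay above all 4 Elf5-negative ratios. The mean log2 ratio was 2.29 ± 0.145 (SD, n = 2) in Elf5-positive cells and 1.26 ± 0.47 (SD, n = 4) in Elf5-negative cells. The 2-sided exact permutation test gave p = 0.133, the smallest that 15 splits of 2 against 4 allow, and 0.266 after Benjamini-Hochberg adjustment over the 2 ratios computed.

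The receptor of both ligands, Csf1r, which marks macrophages, stood at 26.6 and 12.2 CPM in Elf5-positive libraries and at 43.8, 36.6, 25.3 and 13.4 CPM in Elf5-negative libraries, and the groups overlapped (log2 fold change -0.62, edgeR adjusted p = 0.633). Of the 7 growth factor receptor genes, which include the alternative Il34 receptors Ptprz1 and Sdc1 and the chains Csf2ra, Csf2rb, Csf2rb2 and Csf3r, 0 were higher and 0 lower in edgeR (1 lower at an unadjusted p below 0.05), DESeq2 or limma-voom, with a median log2 fold change of -0.55. Csf2rb, the common beta chain of the Csf2 receptor, had -1.71 (edgeR adjusted p = 0.218), and its near-identical paralog Csf2rb2 had -1.57 (adjusted p = 0.352), so their reads may be shared. The 11 macrophage markers summed to 357 and 202 CPM in Elf5-positive libraries and to 600, 268, 196 and 141 CPM in Elf5-negative libraries. Of the 11, 0 passed in edgeR (1 lower at an unadjusted p below 0.05), 1 was lower with DESeq2 and 0 were called with limma-voom.

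The granulocyte factors did not pass. Csf2 (ENSMUSG00000018916, chromosome 11 at 54247271 to 54249667, minus strand) stood at 2.50 and 0.0581 CPM in Elf5-positive libraries and at 4.06, 2.33, 3.40 and 1.23 CPM in Elf5-negative libraries. The Elf5-positive libraries were split, with 111 counts in library 1 and 3 counts in library 2, which spans 0.0120 to 0.170 CPM by an exact Poisson 95% interval that covers counting error only. The log2 fold change was -1.13 (SE 1.12, edgeR adjusted p = 0.706). Without Elf5-positive library 1 it was -5.51 (adjusted p = 0.0408), a value that rests on the 3 counts of library 2, and without library 2 it was -0.16 (adjusted p = 0.942).

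Csf3 (ENSMUSG00000038067, chromosome 11 at 98701263 to 98703629, plus strand) was the one member with a log2 fold change above 0. It stood at 9.54 and 6.23 CPM in Elf5-positive libraries and at 9.95, 6.02, 3.93 and 2.67 CPM in Elf5-negative libraries, which overlapped. The log2 fold change was 0.47 (SE 0.54, edgeR adjusted p = 0.747), and it was 0.66 and 1.22 between T2 libraries of the same number. Scaled to the epithelial markers, which moved the median of all genes to -1.48, it was -1.18. Other haematopoietic growth factors were at levels that gave 4 testable genes of 7: Kitl, the ligand of the receptor Kit, had a log2 fold change of 0.11, Il7 had 0.29 and Flt3l, the dendritic cell factor, had -1.47 (edgeR adjusted p = 0.218). Of the 4, 0 passed in edgeR (1 lower at an unadjusted p below 0.05), DESeq2 or limma-voom, and Il3 and Epo were at 0 in all 6 libraries.

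**Figure D2:**
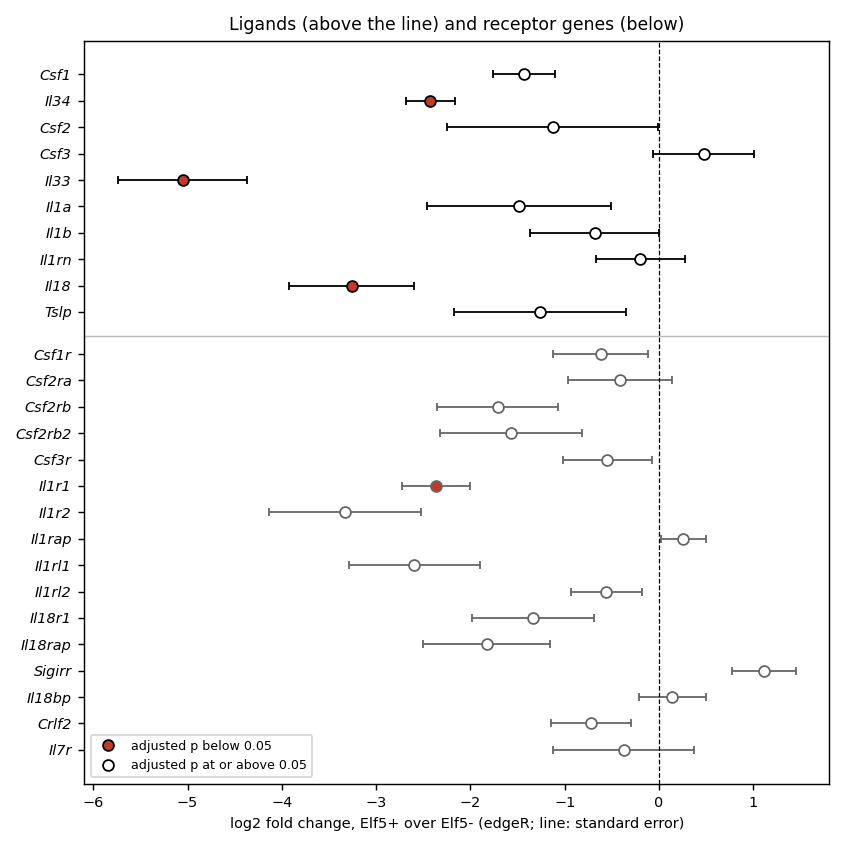
Log2 fold change, Elf5-positive over Elf5-negative, of the members (above the line) and of receptor genes (below it), with the standard error from edgeR; filled points had an adjusted p below 0.05. Il33 lies farthest from 0 at -5.05, followed by Il18 at -3.26 and Il34 at -2.43, Csf3 is the one member to the right of 0, and Il1r1 is the filled receptor.

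Il33 showed the largest difference of the 10 members. Il33 (ENSMUSG00000024810, chromosome 19 at 29925114 to 29960718, plus strand), a nuclear alarmin of stromal and epithelial cells, stood at 3.17 and 2.54 CPM in Elf5-positive libraries and at 77.3, 40.1, 179 and 82.9 CPM in Elf5-negative libraries. Every Elf5-negative library was above both Elf5-positive libraries, and within the Elf5-negative group the levels spanned 4.46-fold, with library 3 the highest. The means were 2.85 ± 0.450 CPM (SD, n = 2) and 94.8 ± 59.1 CPM (SD, n = 4). Il33 fell by 5.05 on the log2 scale (SE 0.68, edgeR adjusted p = 0.0121), and its mean was 33.2-fold lower in Elf5-positive cells. Between T2 libraries of the same number the log2 differences were -3.66 and -5.03. The adjusted p was 0.0519 without Elf5-positive library 2.

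Markers of other cell types also differed between the groups. Within the Elf5-negative group their sums did not all follow Il33. In library 3, where Il33 was highest, the fibroblast sum was also highest, at 52080 CPM, and the endothelial sum lowest, at 238 CPM. Beside the fibroblast list, 7 pericyte markers summed to 87.2 to 112 CPM in Elf5-positive libraries and to 512 to 1072 CPM in Elf5-negative libraries, and 4 of the 7 were lower. The 12 endothelial markers summed to 80.5 to 111 CPM in Elf5-positive libraries and to 238 to 296 CPM in Elf5-negative libraries, with 3 lower. Of 9 basal epithelial markers 4 were lower, while their sums overlapped, at 736 to 1078 CPM in Elf5-positive libraries and 827 to 1522 CPM in Elf5-negative libraries. Per 1000 CPM of the summed fibroblast list, Il33 stood at 2.29 and 2.25 CPM in Elf5-positive libraries and at 3.07, 2.31, 3.43 and 4.39 CPM in Elf5-negative libraries. Both Elf5-positive values lay below the lowest Elf5-negative value, by less than the Elf5-negative libraries differed among themselves. Il34 per 1000 CPM of that list was higher in the Elf5-positive libraries, at 4.47 and 5.61 CPM against 1.36, 1.71, 0.748 and 1.67 CPM. Csf1 on the same scale was at 54.7 and 79.2 CPM against 10.02, 16.1, 4.26 and 7.36 CPM. Il18 was at 0.276 and 0.120 CPM against 0.133, 0.0997, 0.0555 and 0.103 CPM. The fibroblast sum itself was lower in Elf5-positive libraries, which raises levels there on this scale. Mean levels of Csf2, Csf3, Tslp, Il1a, Il1b, Il1rn and Il18 were higher there too, and only that of Il33 was lower. Per 1000 CPM of the epithelial list every member mean was lower in Elf5-positive libraries, for Il34 0.823 against 11.3 CPM. The part that the cells behind these marker lists have in the lower Il33, Il34 and Il18 was not tested.

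**Figure D3:**
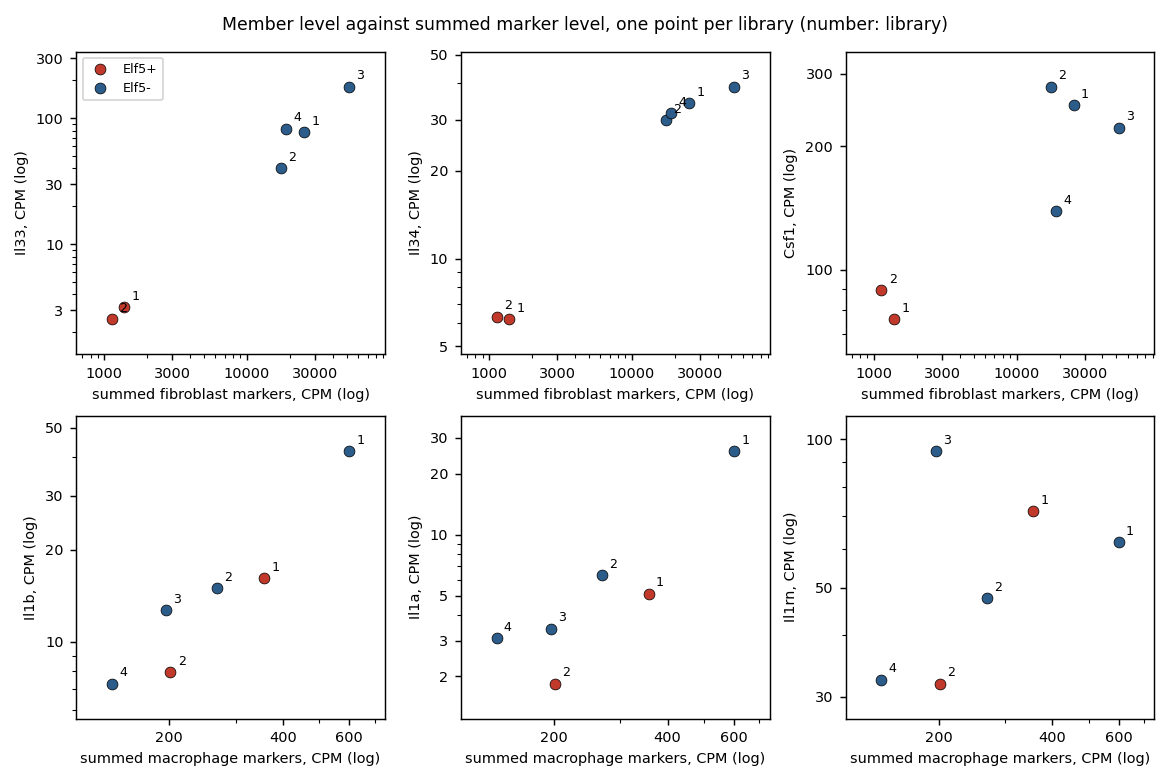
Levels of Il33, Il34 and Csf1 against the summed fibroblast markers, and of Il1b, Il1a and Il1rn against the summed macrophage markers, in CPM on log axes; each point is 1 of the 6 libraries, red for Elf5-positive (Elf5+) and blue for Elf5-negative (Elf5-), with its library number. The fibroblast sum runs from 1129 to 1384 CPM in Elf5-positive libraries and from 17390 to 52080 CPM in Elf5-negative libraries, and Il33 is low in the first and high in the second.

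The receptor of interleukin 33, Il1rl1 (ST2), stood at 1.69 and 0.832 CPM in Elf5-positive libraries and at 4.69, 13.4, 8.73 and 3.50 CPM in Elf5-negative libraries. The groups did not overlap, and the test gave -2.60 on the log2 scale with an edgeR adjusted p of 0.0863. Its co-receptor Il1rap had a log2 fold change of 0.26. Among the 9 interleukin 1 family receptor genes the signalling receptor Il1r1 was the 1 that passed, and it was lower: 22.1 and 17.4 CPM in Elf5-positive libraries against 96.4, 75.7, 152 and 83.2 CPM in Elf5-negative libraries (log2 fold change -2.36, SE 0.36, edgeR adjusted p = 0.0149). The decoy receptor Il1r2 stood at 1.06 and 0.852 CPM in Elf5-positive libraries and at 15.1, 4.98, 15.3 and 2.98 CPM in Elf5-negative libraries, which did not overlap (edgeR adjusted p = 0.0629). Sigirr, an inhibitory receptor of the family, had a log2 fold change of 1.11 (edgeR adjusted p = 0.125). The list had a median log2 fold change of -1.34. In edgeR 1 of 9 was lower and 0 were higher (4 lower and 1 higher at an unadjusted p below 0.05), with DESeq2 4 lower and 1 higher, and with limma-voom 1 lower and 0 higher. The call on Il1r1 was lost without Elf5-negative library 1 (adjusted p = 0.0511) and without Elf5-positive library 2 (adjusted p = 0.0723).

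Il1a (ENSMUSG00000027399, chromosome 2 at 129299610 to 129309972, minus strand), the interleukin 1 that acts as an alarmin, stood at 5.11 and 1.84 CPM in Elf5-positive libraries and at 25.9, 6.30, 3.44 and 3.09 CPM in Elf5-negative libraries. Library 1 of the Elf5-negative cells was far above the other 3, and the groups overlapped. The log2 fold change was -1.49 (SE 0.98, edgeR adjusted p = 0.532), and without Elf5-negative libraries 1 and 2 it was 0.10. Il1b (ENSMUSG00000027398, chromosome 2 at 129364570 to 129371139, minus strand), the form cut by caspase-1, stood at 16.2 and 7.96 CPM in Elf5-positive libraries and at 42.1, 14.9, 12.7 and 7.30 CPM in Elf5-negative libraries, again with library 1 the highest. Its log2 fold change was -0.68 (SE 0.68, edgeR adjusted p = 0.707), and between T2 libraries of the same number it was 0.11 and 0.12. The macrophage and leukocyte sums were also highest in that Elf5-negative library, at 600 and 93.0 CPM, and their part in it was not tested.

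Per 1000 CPM of the macrophage markers, Il1b stood at 45.4 and 39.4 CPM in Elf5-positive libraries and at 70.2, 55.7, 64.8 and 51.8 CPM in Elf5-negative libraries. Il1a on that scale was at 14.3 and 9.11 CPM against 43.2, 23.5, 17.5 and 21.9 CPM. On this scale the groups did not overlap for either gene. Per 1000 CPM of the 6 leukocyte markers they did overlap: Il1b stood at 401 and 241 CPM in Elf5-positive libraries and at 453, 317, 399 and 222 CPM in Elf5-negative libraries, and Il1a at 127 and 55.7 CPM in Elf5-positive libraries and at 279, 134, 108 and 93.8 CPM in Elf5-negative libraries. These scaled levels carry no test.

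Il1rn (ENSMUSG00000026981, chromosome 2 at 24336853 to 24351494, plus strand), the antagonist, stood at 71.6 and 31.9 CPM in Elf5-positive libraries and at 61.8, 47.6, 94.9 and 32.5 CPM in Elf5-negative libraries. The groups overlapped (log2 fold change -0.20, SE 0.47, edgeR adjusted p = 0.893). Per kilobase of exon, Il1rn was 1.17- and 1.13-fold of Il1a and Il1b together in Elf5-positive libraries and 0.317-, 0.780-, 2.04- and 1.09-fold in Elf5-negative libraries. The difference of the mean log2 ratios was 0.42, with a 2-sided exact permutation p of 0.667 and the same value after adjustment over the 2 ratios. Without Elf5-negative library 1 that difference was -0.06. The ratios depend on the length used and were not recomputed with the longest transcript. With that length, mean Il1rn in Elf5-positive cells was 20.3 CPM per kb, beside 1.76 for Il1a and 8.90 for Il1b. In Elf5-negative cells the means were 23.2, 4.91 and 14.2 CPM per kb.

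Il18 (ENSMUSG00000039217, chromosome 9 at 50554827 to 50581840, plus strand), the inflammasome-cut inducer of interferon gamma, was the least abundant member per length in Elf5-positive cells. It stood at 0.382 and 0.136 CPM in Elf5-positive libraries, from 17 and 7 counts, and at 3.34, 1.73, 2.89 and 1.95 CPM in Elf5-negative libraries, from 153, 55, 142 and 19 counts. Exact Poisson 95% intervals were 0.223 to 0.612 CPM and 0.0545 to 0.279 CPM in the Elf5-positive libraries and 1.18 to 3.05 CPM in the smallest Elf5-negative library, so the groups were separate by more than counting error. Il18 fell by 3.26 on the log2 scale (SE 0.67, edgeR adjusted p = 0.0376). The log2 differences between T2 libraries of the same number were -2.18 and -3.85. The call was lost in the fit without Elf5-positive library 2 (adjusted p = 0.140) and without Elf5-negative library 1, 2 or 3 (adjusted p = 0.0936, 0.0593 and 0.0985). Its receptor chains Il18r1 and Il18rap had log2 fold changes of -1.34 and -1.83 (edgeR adjusted p = 0.360 and 0.209), and Il18bp, the soluble inhibitor, had 0.14.

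Tslp (ENSMUSG00000024379, chromosome 18 at 32815383 to 32819797, plus strand), the epithelial cytokine that acts on dendritic cells, was low in all libraries. It stood at 0.405 and 1.18 CPM in Elf5-positive libraries and at 3.84, 0.536, 2.40 and 0.720 CPM in Elf5-negative libraries. Elf5-negative libraries 1 and 3, both marked T1, were above the other 4, and the groups overlapped (log2 fold change -1.26, SE 0.91, edgeR adjusted p = 0.580). The receptor chains Crlf2 and Il7r had log2 fold changes of -0.72 and -0.37, and 0 of 2 passed in edgeR, also at an unadjusted p below 0.05, or in DESeq2 or limma-voom.

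Of the 74 genes of the pathway lists, some of which did not pass the count filter, Il1r1 and Irak3 were the 2 called. A share of 4.37% was called over all genes tested, which leaves such untested genes out. Of 13 adaptor and kinase genes acting downstream of the receptors, 1 was lower and 0 were higher in edgeR (1 lower and 1 higher at an unadjusted p below 0.05), 1 was lower and 0 higher with DESeq2 and 0 were called with limma-voom, with a median log2 fold change of -0.01. That gene was Irak3, an inhibitory kinase-like member of the interleukin 1 receptor pathway, at 2.25 and 3.48 CPM in Elf5-positive libraries against 22.9, 8.73, 29.1 and 12.4 CPM in Elf5-negative libraries (log2 fold change -2.68, SE 0.58, edgeR adjusted p = 0.0458). The call on Irak3 was lost on leaving out any 1 library other than Elf5-negative library 2, with adjusted p between 0.0502 and 0.139. Of the 12 inflammasome and processing genes tested of 17, 0 passed in edgeR (4 lower at an unadjusted p below 0.05), 1 was lower with DESeq2 and 0 were called with limma-voom. The pore-forming Gsdmd had -1.86 (edgeR adjusted p = 0.116) while Casp1, the caspase that cuts interleukins 1 beta and 18, had -0.04. Of 12 NF-kappaB factors and feedback genes 0 passed in edgeR, also at an unadjusted p below 0.05, and 0 with DESeq2 or limma-voom, with a median of -0.07 and Tnfaip3, the feedback inhibitor, at -0.86 (edgeR adjusted p = 0.406). Of 7 other interleukin 1 family ligands and alarmins 3 were testable and 0 passed in edgeR (1 lower at an unadjusted p below 0.05), DESeq2 or limma-voom, with the nuclear alarmin Hmgb1 at 0.55 (edgeR adjusted p = 0.317).

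Across the 6 libraries, the genes whose log2 level was most like that of Il33 were Igf1, Mfap5 and Sulf1 (Pearson r of 0.999 each). For Il34 they were Aebp1 (0.999), Nrp1 and Bnc2 (0.998 each), and for Il18 Apod, Ccl11 and Ecm2 (0.996 each). Csf1 was most like Asb1 (0.993), Rcn1 (0.991) and Evi2a (0.987), and Il1b most like Irf1 (0.990), Plekha5 (0.986) and Lcp2 (0.977). The other members had equally close genes: Iqsec2 for Csf2 and Fbxw17 for Il1a (0.997 each), and Anpep for Il1rn (0.996). The closest were Plk2 for Csf3 (0.989) and Hipk3 for Tslp (0.978). These are descriptions over 6 points that share 2 group levels. Mfap5 is also on the fibroblast list.

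**Figure D4:**
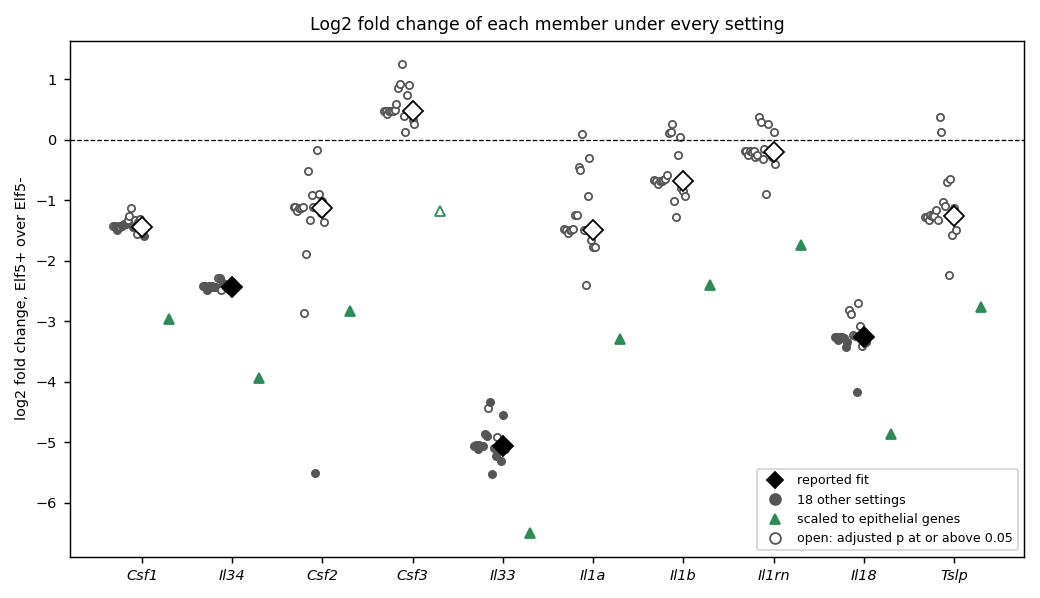
Log2 fold change of each member, Elf5-positive over Elf5-negative, in the reported fit (diamonds) and under 19 other settings (circles, and triangles for scaling to epithelial markers); open symbols had an adjusted p at or above 0.05. Il34, Il33, Il18, Csf1 and Csf2 lie below 0 under all of these settings, and Csf3, Il1b, Il1rn, Il1a and Tslp lie on both sides of 0.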

How the data were processed

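RNA-seq of 6 sorted libraries was used. The authors made the deposited gene table of estimated counts (expected counts, whole numbers, 52325 genes) using Salmon and GRCm38.p5 (per the submitters' processing notes). Its version, annotation, strand setting and rounding were not given in the sources used here. Salmon divides reads between similar or overlapping genes by model. Symbols were matched by Ensembl ID for 52220 genes, with coordinates and exon lengths from GENCODE M21 (GRCm38) and promoters from RefSeq, GRCm38.p6.

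Tests used edgeR 4.0.16, with DESeq2 1.42.0 and limma 3.58.1 as alternatives, in R 4.3.3, and figures matplotlib 3.10.9 in Python 3.11.15. After filterByExpr (20684 genes) and TMM scaling, 2 Elf5-positive libraries were compared with 4 Elf5-negative libraries by edgeR's quasi-likelihood test without a block, with Benjamini-Hochberg adjustment over all genes tested. The members and lists were chosen with earlier results of these data known. Named genes were the members, the pathway genes that passed or had the smallest p, the receptors of the members and abundant markers. For each member up to 3 of the most alike genes were named. Counts on a strand opposite to a member cannot be separated: Il18 overlaps Bco2 and Tex12, and these and the other overlapping genes reached at most 0.599 CPM. Alternatives are listed in the closing section.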

Additional observations from a re-analysis of the deposited data

Results flagged for a closer look

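Il1a in the Elf5-negative libraries was flagged because library 1 stood far from the other 3, at 25.9 CPM beside 6.30 CPM in the next library. The gap was 0.859 of the whole range of the group, above Dixon's critical value at the 95% level for a group of 4. A single flag among the 10 members and 2 ratios checked is near the number that chance gives, which is about 1 in 20 groups.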

How the results depend on the processing

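Members called lower numbered 3, against 9 with scaling to epithelial markers, 0 with the T2 libraries alone, 1 without Elf5-negative libraries 1 and 2, and 1 to 4 on leaving out 1 library at a time. Members called higher numbered 0 throughout. In edgeR, the T2 libraries alone gave 0 calls over all genes (1463 lower and 469 higher at an unadjusted p below 0.05, with 4 members and 6 pathway genes), and no other tool was run on them. Scaling to epithelial markers moved the median of all genes to -1.48 and the calls to 12 higher and 11832 lower, beside 121 and 783.

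Of the pathway genes, 2 were called, against 51 with epithelial scaling, 5 without a filter, 7 with DESeq2, 1 with limma-voom, 0 with the T2 libraries alone, 8 with these and a replicate block, 0 without Elf5-negative libraries 1 and 2 (7 at an unadjusted p below 0.05) and 0 to 2 on leaving out 1 library. Over all genes the 904 calls became 1604 without a filter, 2199 with DESeq2, 236 without Elf5-positive library 2 and 75 without Elf5-negative libraries 1 and 2.

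Some log2 fold changes turned round. Csf3 was -1.18 with epithelial scaling, which lowered all genes alike and so does not set Csf3 apart. With the T2 libraries alone, Il1b was 0.12, Il1rn 0.37 and Tslp 0.38, and with a replicate block 0.13, 0.29 and 0.14. Without Elf5-negative libraries 1 and 2, Il1a was 0.10, Il1b 0.26 and the log2 ratio of Il1rn to Il1a and Il1b -0.38. On leaving out 1 library at a time, Il1b ranged from -1.28 to 0.044, above 0 without Elf5-negative library 1, and that ratio from -0.064 to 0.83, below 0 without the same library. Il1rn ranged from -0.90 to 0.27, above 0 without Elf5-positive library 2 (0.27) and without Elf5-negative library 3 (0.13). The difference of the log2 ratio of Csf1 to Il34 ranged from 0.85 to 1.21 on leaving out 1 library and was 1.39 without Elf5-negative libraries 1 and 2. The cause of these shifts was not tested.

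Of 19 alternatives each, Il34 and Il33 kept their call in 17, Il18 in 12, and Csf1 passed in 9; calls ended with the T2 libraries alone for Il34 (adjusted p = 0.102), Il33 (0.0879) and Il18 (0.278). The same T2 libraries with a replicate block called 2 members lower, Il34 (-2.29, adjusted p = 0.0057) and Il33 (-4.33, adjusted p = 0.0056), and not Il18 (0.0520). The labels do not define the title numbers, so the libraries share only a number. Deviations of same-numbered libraries from their group means correlated at 0.584 and 0.666 with the T2 libraries of the Elf5-negative cells but at 0.14 and -0.036 with the T1 libraries. The deviations of the 2 Elf5-positive libraries are mirror images, so each value fixes that of the other number with the opposite sign. These values are therefore not independent. With the title number as a replicate block, 4 members were called lower, Csf1 (adjusted p = 0.0466) added, and 3 pathway genes. Levels per length moved by more than 1 SD with the longest transcript for Csf1 (19.8) and Il34 (3.48) in Elf5-positive cells and for Il1rn in both groups (20.3 and 23.2 CPM per kb). Depth limits Il18, Tslp and Csf2, whose floor of 3 counts is 0.0581 to 0.0675 CPM in Elf5-positive libraries and 0.0610 to 0.309 CPM in Elf5-negative libraries.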
